A study of Mus musculus with 5 samples.

Results

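The 8 genes described here encode the T cell receptor: the constant regions of its delta chain (Trdc), gamma chain (Tcrg-C1, Tcrg-C2 and Tcrg-C4), alpha chain (Trac) and beta chain (Trbc1 and Trbc2), and 1 delta variable segment, Trdv4. They were chosen by symbol, and all 8 were present among the 31053 genes counted in each library. Trdv4 is a variable segment and not a constant region, so 7 of the 8 are constant-chain genes.

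A T cell carries a receptor of either a gamma and a delta chain or an alpha and a beta chain, held at the surface by the CD3 proteins. Each chain is assembled by joining a variable segment to a constant region, and the delta genes lie inside the alpha locus, so that joining an alpha variable segment removes the delta genes from that chromosome. Mouse epidermis is known for a dense network of resident gamma-delta T cells, the dendritic epidermal T cells, which carry a nearly uniform receptor. Mouse dermis holds other gamma-delta T cells, many of them producers of interleukin 17, together with alpha-beta T cells.

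Single-cell RNA was counted in 5 droplet libraries of C57BL/6 mouse skin, 1 library for each group. The groups were wild-type dermis from 10-week mice after imiquimod, an activator of innate RNA sensors that produces psoriasis-like inflammation, put on the ear on 5 consecutive days; lesional whole skin from 18-week K5. Pp6fl/fl mice; non-lesional epidermis from 10-week K5. Pp6fl/fl mice; untreated epidermis from 10-week wild-type mice; and untreated dermis from 10-week wild-type mice. K5 usually denotes the keratin 5 promoter, active in basal keratinocytes, and fl/fl a pair of floxed alleles, but the labels do not spell the genotype out. The lesional and non-lesional K5.Pp6 libraries differed in tissue and age as well as in lesion state, and these cannot be told apart. With 1 library a group there was no replicate of any group: ratios between libraries carry no test, and their 95% intervals cover counting error only.

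Sequence first shows which members a short read can tell apart. In the annotation of build mm10 (GENCODE vM21), Trdc lies on chromosome 14 at chr14:54142851-54148868, on the plus strand, with Trdv4 before it at chr14:54074905-54075515 and Trac after it at chr14:54220521-54224206. Trbc1 (chr6:41538218-41539881) and Trbc2 (chr6:41546730-41548352) are neighbours on the plus strand of chromosome 6. Tcrg-C1 (chr13:19214103-19217024), Tcrg-C2 (chr13:19304649-19307551, on the minus strand) and Tcrg-C4 (chr13:19344558-19352756) lie on chromosome 13. Each constant gene has 3 or 4 exons. The beta pair matches at 495 of 518 aligned coding positions (95.6%), and Tcrg-C1 and Tcrg-C2 at 487 of 515 (94.6%). The stretches below, 30 coding bases each with the differing bases in capitals, are shown because the coding sequences of each pair differ in them. The gamma stretch lies far from the 3′ end, so reads of a 3′ kit would rarely cover it.
Trbc1: tACActggtgGtgatggcTatggtcaaAaG
Trbc2: tGGCctggtgCtgatggcCatggtcaaGaA
Tcrg-C1: tgtctccttgaaaagttctttccAgatgtT
Tcrg-C2: tgtctccttgaaaagttctttccCgatgtC
The beta stretch covers coding positions 479 to 508 and holds 7 differences, and the gamma stretch covers coding positions 93 to 122 and holds 2. Of the 648 windows of 90 bases in the Trbc1 transcript, 203 also occur in Trbc2, but none of the 211 windows in the last 300 bases, the end a 3′ kit reads, does. Of the same 211 final windows of Tcrg-C1, 15 occur in Tcrg-C2, so a small part of the reads of this pair is uncertain. Tcrg-C4 shares no such window with Tcrg-C1 or Tcrg-C2. Trdc overlaps Trdv5 and Gm43434 on the other strand. These gave at most 16 and 4 UMIs in the CD3-gated cells of any library, where Trdc gave between 969 and 32215.

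Cells were kept for the comparison when they held at least 2 unique molecular identifiers (UMIs, each 1 captured RNA molecule) of Cd3d, Cd3e and Cd3g in sum. This left 331 of 4776 cells in imiquimod dermis, 392 of 2579 in lesional whole skin, 2291 of 2805 in non-lesional epidermis, 430 of 898 in untreated epidermis and 94 of 519 in untreated dermis. The libraries held between 3020790 and 41258087 UMIs in all, and shared between 0 and 23 cell barcodes per pair. Median depth of the gated cells ran between 4248 and 8032 UMIs. The gate did not select the same kind of cell everywhere. In non-lesional epidermis 1229 of the 2291 CD3-gated cells (53.6%) had at least 1% of their UMIs from keratin genes, and Ptprc, the pan-leukocyte marker, was found in 45.7%; in untreated epidermis the keratin share was 12.3%. Macrophage markers reached 10 UMIs in 34.4% of the gated cells of imiquimod dermis and in 17.02% of those of untreated dermis. The CD3 share per cell fell into separate low and high groups in the epidermal libraries. A CD3-rich set was therefore defined after seeing the data, with at least 30 CD3 UMIs per 10000 UMIs in the epidermal libraries and at least 5 in the others. It held 275, 381, 920, 374 and 83 cells in the same order of libraries. In it the keratin share was 8.59% in non-lesional epidermis and 0.802% in untreated epidermis, and Ptprc was found in 86.1% and 85.3%. At the edge of the gate, Trdc was found in 74.3% of the non-lesional epidermal cells with exactly 2 CD3 UMIs and in 61.6% of those with 1, against 15.4% and 4.18% in imiquimod dermis.

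**Figure D1:**
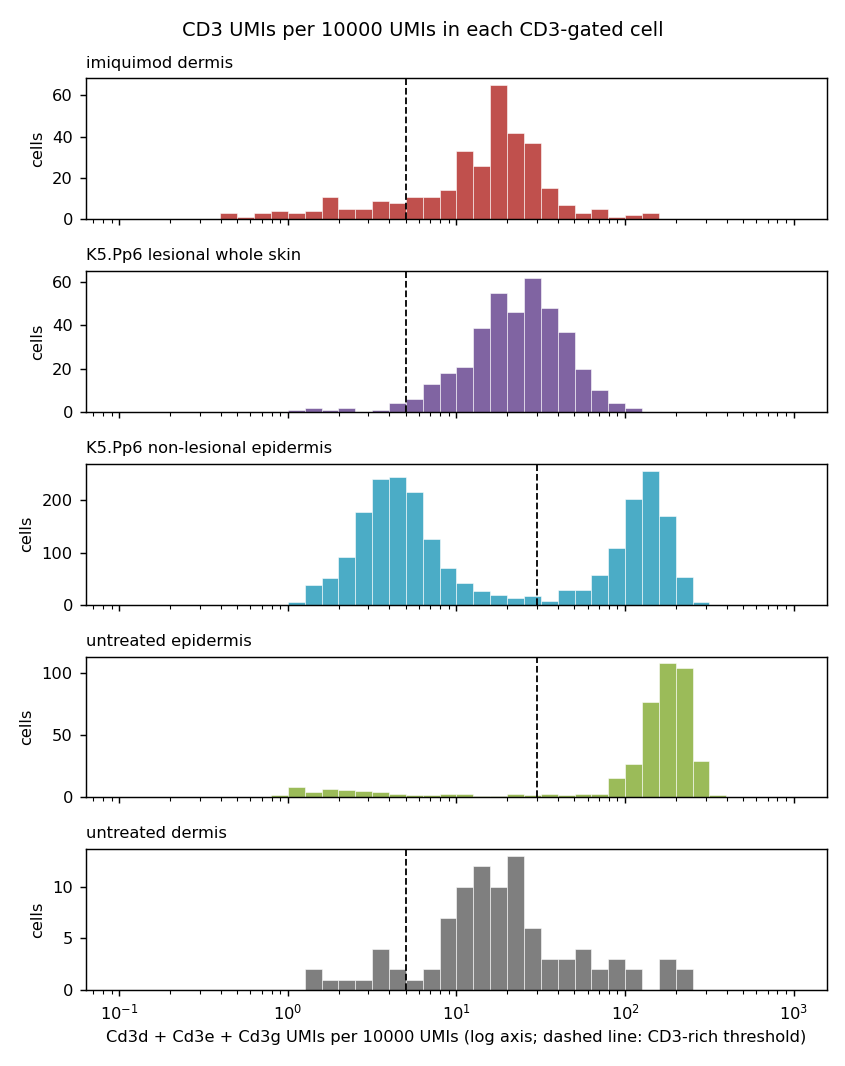
CD3 UMIs per 10000 UMIs (horizontal, log axis) in each CD3-gated cell, with the number of cells on the vertical axis and 1 panel per library; the dashed line is the CD3-rich threshold. Non-lesional epidermis has a low group and a high group of cells, with 1371 cells below the line and 920 above it, while 374 of the 430 cells of untreated epidermis lie above it.

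The 1371 CD3-gated cells of non-lesional epidermis below the CD3-rich threshold held Trdc at 215 UMIs per 1000000 UMIs (CPM) in 84.5% of them, at a median depth of 10738 UMIs. Keratin-gated cells of that library, which should lack the gene and had under 2 CD3 UMIs, held it at 248 CPM in 55.2%, at a median depth of 2776 UMIs. Tcrg-C1 kept a like proportion in these cells, with 34.5 UMIs per 100 Trdc UMIs below the threshold (95% interval 32.2 to 36.9), 32.6 above it (31.8 to 33.3) and 33.9 in keratin-gated cells (27.3 to 41.8). Trbc2 did not, with 21.6 per 100 Trdc UMIs below the threshold (19.9 to 23.4), 9.79 above it (9.42 to 10.2) and 19.2 in keratin-gated cells (14.6 to 24.96). Trbc1 gave 12.4 below it (11.1 to 13.7), 9.86 above it (9.48 to 10.2) and 12.99 in keratin-gated cells (9.34 to 17.7). Tcrg-C4 gave 4.16 below it (3.49 to 4.94), 2.79 above it (2.60 to 2.99) and 2.26 in keratin-gated cells. The source of the Trdc UMIs below the threshold was not tested. In untreated epidermis keratin-gated cells held Trdc at 47.5 CPM in 15.7%. Macrophage-gated cells held it in 2.20% in imiquimod dermis, 0.612% in lesional skin and 4.46% in untreated dermis.

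Among CD3-rich cells the delta chain gene Trdc had its highest levels in the epidermal libraries. Over CD3-gated cells it stood at 403 CPM (382 to 425) in imiquimod dermis, 1055 CPM (1012 to 1100) in lesional skin, 1721 CPM (1702 to 1740) in non-lesional epidermis, 6806 CPM (6696 to 6918) in untreated epidermis and 1861 CPM (1746 to 1982) in untreated dermis. Over CD3-rich cells the levels were 548, 1172, 8771, 9382 and 2519 CPM in the same order. Non-lesional epidermis thus lay below untreated dermis over CD3-gated cells and above it over CD3-rich cells. The CD3-rich threshold was 30 CD3 UMIs per 10000 in the epidermal libraries and 5 in the others, and the part of this difference in the levels was not tested. The order of libraries in the CD3-rich set was untreated epidermis, non-lesional epidermis, untreated dermis, lesional skin and imiquimod dermis, with no overlap between the counting intervals of neighbours. A level over cells combines the share of cells with the gene and the amount in each, and both moved. Among CD3-rich cells Trdc was found in 37.5% in imiquimod dermis, 37.5% in lesional skin, 98.5% in non-lesional epidermis, 98.7% in untreated epidermis and 66.3% in untreated dermis; with each cell thinned to 2000 UMIs the shares were 28.6%, 35.4%, 99.6%, 100% and 67.1%. In the CD3-rich cells that held Trdc, its median was 8.57, 25.1, 82.3, 90.1 and 26.3 UMIs per 10000. Lesional skin and imiquimod dermis therefore had unequal amounts per bearing cell. Their shares of Trdc-bearing cells were near-equal only before thinning, at median depths of 4551 and 7142 UMIs. Thinned, the shares were 35.4% (30.3 to 40.7) in lesional skin and 28.6% (23.0 to 34.7) in imiquimod dermis, with overlapping intervals.

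Untreated dermis held a minority of cells at the epidermal amount. At least 50 Trdc UMIs per 10000 were found in 32.7% of its 55 Trdc-bearing CD3-rich cells and in 84.7% and 89.4% of those of non-lesional and untreated epidermis. The same level was reached by 1.94% of such cells in imiquimod dermis and 19.6% in lesional skin. The limit of 50 was set after the values were seen.

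Trdv4 is the delta variable segment known from the fetal-wave gamma-delta T cells of skin. Among CD3-rich cells it was higher in non-lesional than in untreated epidermis, the opposite order to Trdc. Over CD3-rich cells it stood at 11.5 CPM (7.69 to 16.5) in imiquimod dermis, 81.0 CPM (68.5 to 95.01) in lesional skin, 378 CPM (358 to 400) in non-lesional epidermis, 166 CPM (146 to 187) in untreated epidermis and 78.5 CPM (53.0 to 112) in untreated dermis. Lesional skin and untreated dermis overlapped, and imiquimod dermis lay below all others. Trdv4 was found with Trdc in nearly every cell that held it: in 17 of 17 CD3-rich cells of imiquimod dermis, 64 of 64 of lesional skin, 576 of 578 of non-lesional epidermis, 158 of 159 of untreated epidermis and 17 of 18 of untreated dermis. In the epidermal libraries this count adds little, because almost every CD3-rich cell there held Trdc.

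The gamma constant genes belong to separate gene clusters, each with its own variable segments, and Tcrg-C1 serves the cluster used by dendritic epidermal T cells. Over CD3-rich cells Tcrg-C1 stood at 187 CPM (171 to 205) in imiquimod dermis, 362 CPM (335 to 390) in lesional skin, 2857 CPM (2799 to 2915) in non-lesional epidermis, 3725 CPM (3629 to 3822) in untreated epidermis and 563 CPM (490 to 643) in untreated dermis. It was found in 40.7%, 40.9%, 95.9%, 98.1% and 53.0% of those cells in the same order. Tcrg-C1 thus kept the order of libraries that Trdc had. Tcrg-C2 stood at 61.3 CPM (52.1 to 71.8) in imiquimod dermis, 100.9 CPM (87.0 to 116) in lesional skin, 181 CPM (167 to 196) in non-lesional epidermis, 252 CPM (227 to 278) in untreated epidermis and 107 CPM (77.0 to 146) in untreated dermis. Tcrg-C4 stood at 29.7 CPM (23.3 to 37.2) in imiquimod dermis, 55.1 CPM (44.9 to 66.8) in lesional skin, 245 CPM (228 to 262) in non-lesional epidermis, 302 CPM (275 to 331) in untreated epidermis and 39.3 CPM (22.0 to 64.8) in untreated dermis. Among CD3-rich cells the epidermal libraries were highest for both. The intervals of untreated dermis overlapped those of lesional skin for Tcrg-C2 and those of both inflamed libraries for Tcrg-C4.

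The alpha chain gene Trac ran the other way. Over CD3-rich cells it stood at 241 CPM (222 to 261) in imiquimod dermis, 370 CPM (343 to 399) in lesional skin, 94.7 CPM (84.5 to 106) in non-lesional epidermis, 112 CPM (95.9 to 130) in untreated epidermis and 262 CPM (213 to 318) in untreated dermis. Lesional skin was highest; the dermal libraries overlapped, and so did the epidermal ones. Trac was found in 56.0%, 55.6%, 23.6%, 27.3% and 38.6% of those cells, and its median in the epidermal cells that held it was 1 UMI. CD3-gated cells with Trac and no Trdc had a median of 18.7 CD3 UMIs per 10000 in imiquimod dermis. The median was 19.4 in lesional skin and 10.9 in untreated dermis. These medians lay below the epidermal CD3-rich threshold of 30 and above the 5 of the other libraries. The part of the unlike thresholds in the Trac levels was not tested. Over CD3-gated cells Trac stood at 180, 338, 19.5, 81.1 and 240 CPM in the same order of libraries.

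The beta constant genes were the most even of the 8 across libraries. Trbc1 stood at 491 CPM (464 to 519) in imiquimod dermis, 546 CPM (513 to 581) in lesional skin, 865 CPM (833 to 897) in non-lesional epidermis, 1087 CPM (1036 to 1141) in untreated epidermis and 458 CPM (393 to 531) in untreated dermis, all over CD3-rich cells. Trbc2 stood at 841 CPM (806 to 878) in imiquimod dermis, 673 CPM (636 to 711) in lesional skin, 859 CPM (828 to 891) in non-lesional epidermis, 954 CPM (906 to 1004) in untreated epidermis and 534 CPM (463 to 613) in untreated dermis. Beta transcripts were thus plentiful in the epidermal libraries, where Trac was scarce. Trbc2 was found in 85.0% of CD3-rich cells of non-lesional epidermis and 87.7% of those of untreated epidermis, against 15.97% and 7.75% of the keratin-gated cells of those libraries, and Trbc1 in 73.7% and 86.1%, against 11.5% and 2.91%. A CD3-rich cell held a median of 3 of the 8 members in imiquimod dermis, 3 in lesional skin, 5 in non-lesional epidermis, 6 in untreated epidermis and 3 in untreated dermis.

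**Figure D2:**
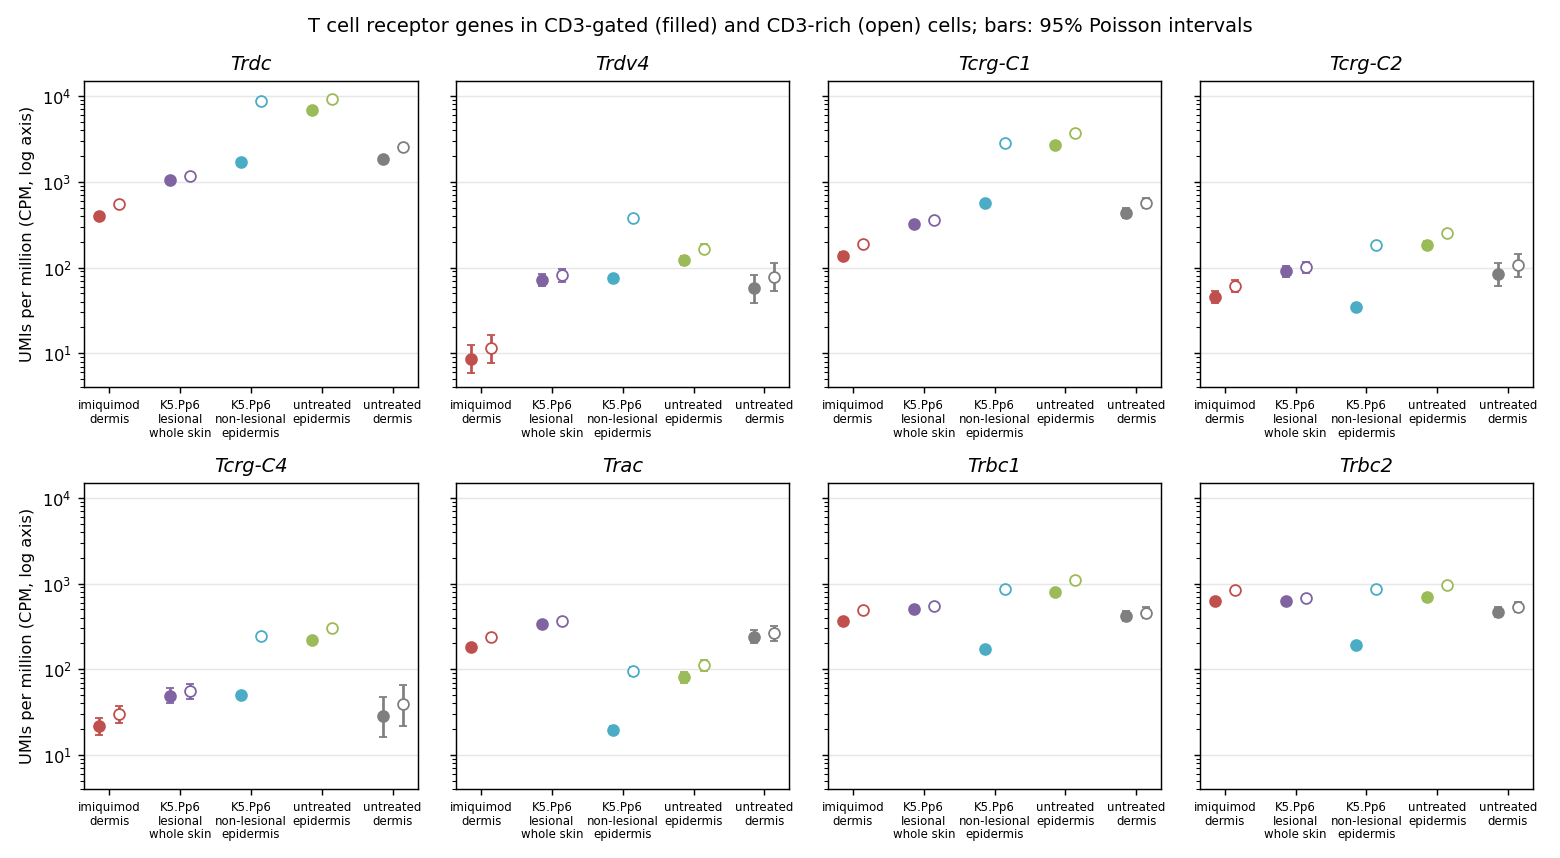
Level of each member in CPM (vertical, log axis) over CD3-gated cells (filled symbols) and CD3-rich cells (open symbols) in each library, with exact Poisson 95% intervals. Trdc and Tcrg-C1 are highest in both epidermal libraries among CD3-rich cells (8771 and 9382 CPM for Trdc), Trac is lowest there (94.7 and 112 CPM), and the filled and open symbols lie farthest apart in non-lesional epidermis.

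In all, 4 pairs of libraries were compared, some of them sharing a library, with a gene called higher or lower where even the nearer bound of its counting interval was past 1.5-fold. In CD3-gated cells of imiquimod dermis against untreated dermis, 3 of the 8 members were lower and none was higher, where 11.5% of all genes measured were lower and 4.63% higher. The lower members were Trdc, at a ratio of 0.217 (0.199 to 0.235), Trdv4 at 0.150 (0.0874 to 0.258) and Tcrg-C1 at 0.316 (0.269 to 0.372). The ratios of Tcrg-C2 (0.532), Tcrg-C4 (0.750), Trac (0.751), Trbc1 (0.877) and Trbc2 (1.34) were not beyond the limit. The lower members were all gamma-delta genes. The same 3 were lower in CD3-rich cells, where 10.2% of all genes were, and none was higher, where 3.1% were. Macrophage markers reached 10 UMIs in 24.7% of the CD3-rich cells of imiquimod dermis and 8.43% of those of untreated dermis, and their part in these ratios was not tested. In such libraries fewer cells of a kind and less RNA per cell both lower a level. For Trdc the share of cells and the amount per bearing cell, given above, were both lower. Of a list of epidermal gamma-delta genes, 10 of 18 measured were lower in CD3-rich cells and 2 were higher. Its median log2 ratio was -1.37, against -0.29 over all genes. Of 24 type 17 gamma-delta genes 4 were lower and 4 higher, with a median of -0.03.

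In non-lesional against untreated epidermis the result turned on the gate. Over CD3-gated cells 7 of the 8 members were lower, at ratios between 0.190 and 0.273, where 18.3% of all genes were lower, and none was higher, where 9.44% were; the exception was Trdv4 at 0.618. All 16 measured genes of the CD3 and receptor signalling list were lower there too. That list includes Cd3d, Cd3e and Cd3g, whose UMIs chose the cells, so these are no independent support. Over CD3-rich cells no member was lower, where 1.49% of all genes were, and 1 was higher, where 3.93% were. The higher member was Trdv4, at a ratio of 2.29 (1.996 to 2.62). Trdc was at 0.935 (0.916 to 0.954), Trac at 0.846 and the other members between 0.719 and 0.9002. Trdv4 thus had the highest ratio of the 8 in either set. Found in 62.8% of CD3-rich cells there and in 42.5% of those of untreated epidermis, it kept that order when cells were thinned to equal depth, with 48.5% and 26.3%.

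Between lesional whole skin and non-lesional epidermis, Trac was higher in both sets of cells. Its ratio was 17.3 (15.3 to 19.7) over CD3-gated cells, where 4 of the 8 members were higher (27.7% of all genes) and 2 were lower (19.1%). Over CD3-rich cells the ratio of Trac was 3.91 (3.42 to 4.49), the 1 member higher there (16.9% of all genes), and 5 members were lower (18.7% of all genes). These were Tcrg-C1 at 0.127 (0.117 to 0.137), Trdc at 0.134 (0.128 to 0.140), Trdv4 at 0.214, Tcrg-C4 at 0.225 and Tcrg-C2 at 0.558. The ratios of Tcrg-C2, Trbc1 and Trbc2 changed direction with the set of cells. Over CD3-gated cells they were 2.59, 2.88 and 3.27, and over CD3-rich cells Trbc1 was at 0.632 and Trbc2 at 0.784. The CD3-rich threshold was 30 CD3 UMIs per 10000 in non-lesional epidermis and 5 in lesional skin. CD3-gated lesional cells with Trac and no Trdc had a median of 19.4, and those with Trdc and no Trac 33.1. The part of the unlike thresholds in the CD3-rich ratios was not tested. Of the type 17 gamma-delta list, 23 of 24 measured genes were higher in lesional CD3-rich cells, with a median log2 ratio of 3.13 against -0.16 over all genes. Il17a, which encodes the cytokine interleukin 17A, stood at 839 CPM in lesional and 0.304 CPM in non-lesional CD3-rich cells. Of the alpha-beta list 19 of 24 were higher, among them Ctla4, an inhibitory receptor of regulatory T cells, at 304 CPM in lesional and 0.911 CPM in non-lesional cells. The lower ones were Lag3, an inhibitory receptor, at 10.3 CPM in lesional and 270 CPM in non-lesional cells, and Trat1, a receptor-associated adaptor, at 82.6 CPM in lesional and 1231 CPM in non-lesional cells.

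Untreated epidermis against untreated dermis set the compartments of healthy skin side by side. Over CD3-gated cells 5 members were higher, where 11.5% of all genes were: Tcrg-C4 at 7.60 (4.56 to 13.7), Tcrg-C1 at 6.23 (5.45 to 7.14), Trdc at 3.66 (3.43 to 3.91), Tcrg-C2 at 2.17 (1.58 to 3.03) and Trbc1 at 1.89 (1.64 to 2.18). Trac was lower at 0.338 (0.267 to 0.429), where 8.63% of all genes were lower. Trdv4 (2.10) and Trbc2 (1.49) were not beyond the limit. Over CD3-rich cells Trbc2 joined the higher ones at 1.79 and Trac was at 0.427, against 9.23% of all genes higher and 7.69% lower. The gamma-delta members differed by unlike amounts, with Tcrg-C1 and Tcrg-C4 more above dermis than Trdc was. In the same cells 17 of the 21 measured type 17 genes were lower in epidermis and none was higher, with a median log2 ratio of -3.23 against 0.34 over all genes. Blk stood at 0 CPM in epidermis and 123 CPM in dermis, and Il17a at 0 CPM in epidermis and 118 CPM in dermis. The alpha-beta list had 13 of 18 lower and 2 higher, the higher ones being Trat1, at 1321 CPM in epidermis and 170 CPM in dermis, and Lag3, at 252 CPM in epidermis and 52.4 CPM in dermis.

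Co-detection in single cells was then used to set gamma-delta against alpha-beta cells. Of the CD3-gated cells, 85 held Trdc and no Trac, 139 Trac and no Trdc, 26 both and 81 neither in imiquimod dermis. In lesional skin these counts were 118, 193, 27 and 54. In non-lesional epidermis they were 1807, 9, 258 and 217, and among its CD3-rich cells 692, 3, 214 and 11. In untreated epidermis they were 283, 0, 102 and 45, and in untreated dermis 46, 26, 12 and 10. Cells with Trdc alone made up 37.9% of the cells with a single one of the genes in imiquimod dermis (31.6 to 44.7), 37.9% in lesional skin (32.5 to 43.6), 99.5% in non-lesional epidermis (99.1 to 99.8), 100% in untreated epidermis (98.7 to 100) and 63.9% in untreated dermis. Thinned to 2000 UMIs, the share was 43.8% in imiquimod dermis, 45.8% in lesional skin and 71.9% in untreated dermis. Bearing cells of these libraries held a median of 3, 2 and 2 Trac UMIs, against 7, 11 and 14.5 Trdc UMIs. The part of missed Trac in these shares was not tested. By the limit of 3 counts, the 0 cells with Trac alone in untreated epidermis allow a share of up to 0.698% of its 430 cells. The exact Clopper-Pearson upper bound is 0.854%.

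**Figure D3:**
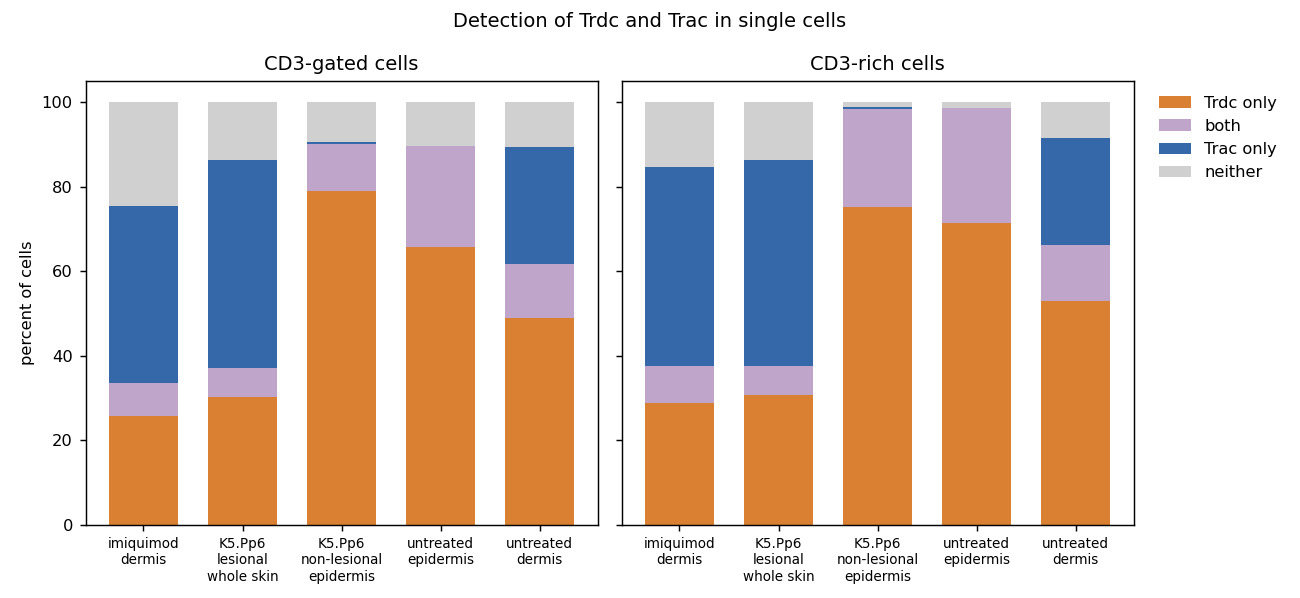
Share of CD3-gated and CD3-rich cells (vertical, percent) with Trdc only, Trac only, both or neither, in each library. Trac-only cells make up 42.0% of CD3-gated cells in imiquimod dermis and 49.2% in lesional skin, 0.393% in non-lesional epidermis and 0 of 430 in untreated epidermis.

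Cells with both Trdc and Trac were compared with the number that the product of the single shares gives. They were fewer in the dermal and lesional libraries. In imiquimod dermis 26 CD3-gated cells held both, against a product of 55.3, a ratio of 0.470. In lesional skin 27 held both where 81.4 would be given (0.332), and in untreated dermis 12 where 23.4 would be (0.512). Among CD3-rich epidermal cells the counts were 214 against 214 in non-lesional epidermis (1.001) and 102 against 100.6 in untreated epidermis (1.01). Trdc was in 906 of 920 and 369 of 374 of these cells, so their ratio could hardly leave 1 and is not comparable with the others. There the Trac level in cells holding both was 341 CPM and 362 CPM. These cells were chosen by a Trac UMI, which raises that level. Tcrg-C1 was found in 99.1% and 99.0% of them, against 95.9% and 98.1% of all CD3-rich cells there. When cells were thinned to 2000 UMIs, those with both numbered 4 of 301 (1.33%) in imiquimod dermis, 13 of 356 (3.65%) in lesional skin and 3 of 81 in untreated dermis. In imiquimod dermis cells with both had a median of 13220.5 UMIs, against 9365 in those with Trdc alone and 6753 in those with Trac alone. The part of depth and of 2 cells in 1 droplet in these cells was not tested.

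The other members were compared between cells with Trdc alone and cells with Trac alone in the 3 libraries with at least 20 cells of each: imiquimod dermis, lesional skin and untreated dermis. Trdc and Trac chose the classes and get no test. Tcrg-C1 stood at 298 CPM in Trdc-only cells of imiquimod dermis, 826 CPM in those of lesional skin and 806 CPM in those of untreated dermis, against 47.2, 53.2 and 73.4 CPM in Trac-only cells of the same libraries. Every Trdc-only value lay above every Trac-only value. With the library as the replicate and as a term of the model, Tcrg-C1 was higher by a log2 fold change of 3.35 (SE 0.26, edgeR quasi-likelihood test, adjusted p = 0.00027). Tcrg-C4 was at 42.5, 118 and 60.0 CPM against 8.52, 9.92 and 0 CPM and was higher by 3.07 (SE 0.39, adjusted p = 0.0063 in edgeR). Tcrg-C2 was at 89.2, 232 and 90.1 CPM against 27.1, 30.7 and 53.4 CPM and was higher by 2.07 (SE 0.32, adjusted p = 0.0165 in edgeR). Trdv4 gave 21, 125 and 24 UMIs in Trdc-only cells and none in Trac-only cells of any of the 3 libraries (adjusted p = 0.00059 in edgeR), so no fold is given; with DESeq2 its adjusted p was 0.086. Without lesional skin Tcrg-C2 was at 1.49 and missed the threshold (adjusted p = 0.087 in edgeR). The Trac-only cells still held Tcrg-C1 in 16.5%, 11.9% and 23.1% of cells.

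In this comparison 4 of the 6 members tested were higher and none was lower, where 0.344% of the 6685 genes tested were higher and 0.509% lower. The beta genes were not among them. Trbc2 stood at 461, 398 and 502 CPM in Trdc-only cells, against 969, 782 and 594 CPM in Trac-only cells, a log2 fold change of -0.78 (SE 0.22, edgeR adjusted p = 0.239). All 3 Trdc-only values lay below all 3 Trac-only values, and the adjusted p missed the threshold. Trbc1 stood at 387, 804 and 420 CPM in Trdc-only cells and at 554, 431 and 454 CPM in Trac-only cells, a log2 fold change of 0.12 (SE 0.24, edgeR adjusted p = 0.965) that was -0.29 without lesional skin. Within libraries Trbc1 was in opposite order: Trdc-only cells held 1.86 times the Trac-only level in lesional skin (1.64 to 2.13) and 0.700 times in imiquimod dermis (0.615 to 0.795). Trbc1 was found in 66.1% of the Trdc-only cells of lesional skin and in 68.2% of those of imiquimod dermis. These like shares were at unlike median depths, 4607 and 9365 UMIs, and the part of depth was not tested.

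**Figure D4:**
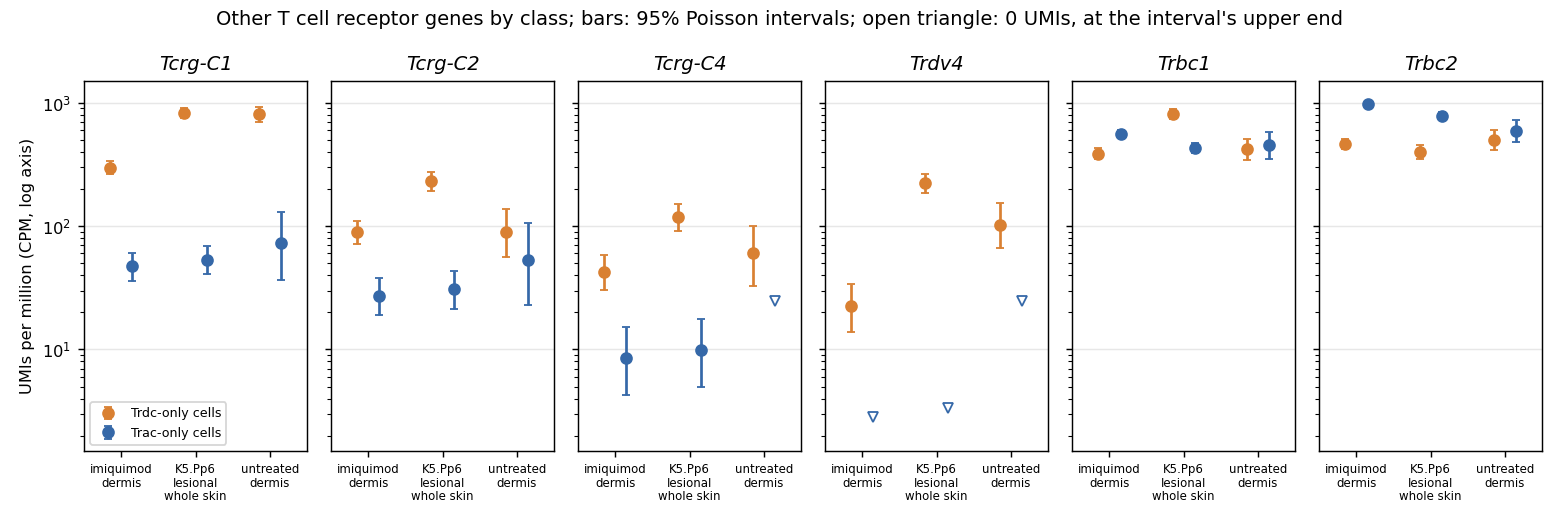
Level of each member other than Trdc and Trac in CPM (vertical, log axis) in Trdc-only and Trac-only cells of imiquimod dermis, lesional skin and untreated dermis, with exact Poisson 95% intervals. Tcrg-C1 is higher in Trdc-only cells in all 3 libraries (298 against 47.2 CPM in imiquimod dermis), and Trbc1 changes order between imiquimod dermis and lesional skin.

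Across all genes the classes differed in 57 of 6685 genes (0.853%), 23 higher and 34 lower in Trdc-only cells; 92 differed when imiquimod dermis was left out. Blk missed the threshold without untreated dermis, and Pdcd1 without untreated dermis or without lesional skin. Among those with at least 50 CPM in the higher class of every library, 9 were higher. Cd163l1, a scavenger receptor known from mouse gamma-delta T cells, led them at 325, 870 and 369 CPM in Trdc-only cells of imiquimod dermis, lesional skin and untreated dermis, against 4.65, 27.1 and 6.67 CPM in Trac-only cells, with a log2 fold change of 5.38 (edgeR adjusted p = 4.9e-05). It was followed by Blk, a Src-family kinase (2.82), Pdcd1, the inhibitory receptor PD-1 (1.88), Osbpl3, an oxysterol-binding protein (1.35), Gstp1, a glutathione transferase (1.30), Jaml, an adhesion molecule that costimulates epidermal gamma-delta T cells (1.27), Serpinb6a, a protease inhibitor (1.22), Sdf2l1, an endoplasmic reticulum chaperone component (1.10), and Sdc4, the proteoglycan syndecan-4 (1.002). The 10 lowest were Tnfrsf4, the costimulatory receptor OX40, at a log2 fold change of -6.23, then Cd28 (-4.90), Cd5 (-4.24), Gramd3 (-3.95), Cd6 (-3.59), Cd2 (-3.09), Ctla4 (-2.78), Ms4a4b (-2.69), the receptor-proximal kinase Lck (-2.52) and Tnfrsf18, the receptor GITR (-2.46). Tnfrsf4 stood at 9.55, 5.35 and 0 CPM in Trdc-only cells, against 931, 151 and 280 CPM in Trac-only cells. Lck, which phosphorylates the CD3 chains, stood at 22.3, 24.96 and 107 CPM in Trdc-only cells and at 177, 255 and 240 CPM in Trac-only cells, so the groups did not overlap.

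By pathway, none of the 18 tested genes of the CD3 and receptor signalling list was higher and 5 were lower: Cd28, Cd5, Cd6, Cd2 and Lck, with a list median log2 fold change of -0.18 against 0.01 over all genes. The list also holds Cd3d, Cd3e and Cd3g, whose UMIs gated the cells of both classes, so their values depend on that choice. Lck, Cd2, Cd5, Cd6 and Cd28 are known as the kinase, adhesion and costimulatory molecules that work with the receptor. The chains that assemble with it did not pass: Cd247, the zeta chain, was at 174, 391 and 399 CPM in Trdc-only cells and at 104, 100 and 40.0 CPM in Trac-only cells (log2 fold change 1.72, edgeR adjusted p = 0.065), and Cd3g was at 914, 2197 and 2016 CPM against 741, 900 and 500 CPM (1.18, adjusted p = 0.142 in edgeR). Of 22 type 17 genes 4 were higher and none was lower, with a median of 0.90. The 4 were Cd163l1, Blk, 5830411N06Rik (2.26) and Il1r1, the interleukin 1 receptor (1.54), whose call was lost without imiquimod dermis or without lesional skin. Without imiquimod dermis 6 of 21 tested were higher, and without untreated dermis 3 of 24, with none lower in either. Without lesional skin 3 of 21 were higher and 1 was lower, with a median of 0.32. Il17a (2.14) and Il17f (1.64) missed the threshold with adjusted p of 0.104 and 0.066 in edgeR; Il17f was at 2900, 547 and 42.9 CPM in Trdc-only cells and at 1670, 90.2 and 13.3 CPM in Trac-only cells. Of 21 alpha-beta genes 12 were lower and 1, Pdcd1, was higher, with a median of -2.50. Beside those named they included the coreceptor Cd4 (-4.62), the coreceptor chain Cd8b1 (-5.94), the homing receptor Ccr7 (-2.50) and the regulatory T cell factor Foxp3, which had 0 UMIs in Trdc-only cells and 186 in Trac-only cells. Cd28, Cd5 and Cd6 stand in both lists.

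None of the 17 tested genes of the epidermal gamma-delta list passed in either direction with edgeR, in a comparison that leaves the epidermal libraries out because they had too few Trac-only cells. DESeq2 called none of the 17 either, and 5 of the 17 had an unadjusted edgeR p under 0.05. Of 8 tested natural killer and innate lymphoid genes Klrb1b, a lectin-like receptor, was higher (2.65), and Klrg1 (-6.62) and Il1rl1, the interleukin 33 receptor (-3.88), were lower. Klrg1 gave 1 UMI in Trdc-only cells and 188 in Trac-only cells, where its level was 128 CPM in imiquimod dermis, 18.9 CPM in lesional skin and 13.3 CPM in untreated dermis. Klrb1b missed the threshold without untreated dermis or without lesional skin, and Il1rl1 without untreated dermis. The members and these lists were chosen with earlier results of the same data known, so the counts describe them and are no independent evidence.

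Variable segments lie far from the end a 3′ kit reads and are rarely counted. A delta variable segment was found in 20% of the 85 Trdc-only cells of imiquimod dermis and in 0 of 139 Trac-only cells, in 52.5% against 0.518% in lesional skin, and in 39.1% against 0 of 26 in untreated dermis. Trdv4 is counted here. It gave 21 of the 26 delta segment UMIs in Trdc-only cells of imiquimod dermis and 125 of the 139 in those of lesional skin. An alpha variable segment was found in 1.18% of Trdc-only and 6.47% of Trac-only cells of imiquimod dermis, and in 3.39% and 7.77% in lesional skin. In untreated dermis 0 of 46 Trdc-only cells and 1 of 26 Trac-only cells held one. The gamma variable segment Trgv2 was found in 8.24% of Trdc-only and 3.60% of Trac-only cells of imiquimod dermis. Its shares were 23.7% and 4.66% in lesional skin, and 10.9% and 0 of 26 in untreated dermis. The gamma segments named Tcrg-V were counted apart, and 3.53% of Trdc-only and 0 of 139 Trac-only cells of imiquimod dermis held one. These shares were not tested. Segments with at least 20 UMIs in CD3-rich cells were few. Besides Trdv4, Trgv2 passed in lesional skin (64 UMIs), non-lesional epidermis (197) and untreated epidermis (43), Tcrg-V5, the gamma segment of dendritic epidermal T cells, in non-lesional (110) and untreated epidermis (21), and Tcrg-V1 in non-lesional epidermis (35). Tcrg-V5 was found in 11.0% of CD3-rich cells of non-lesional epidermis (9.03 to 13.2) and in 5.61% of those of untreated epidermis (3.51 to 8.46). In the same cells Trgv2 was found in 17.2% (14.8 to 19.8) and 9.63% (6.83 to 13.1), and Tcrg-V1 in 32 of 920 and 5 of 374. Tcrg-V5 and Trgv2 had the order that Trdv4 had, with intervals apart. The shares of Tcrg-V1 lay in that order too, but with only 5 cells in untreated epidermis its order is uncertain.

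The genes whose detection was most like that of a member were ranked by the phi coefficient, a correlation of presence and absence over cells, averaged over the 5 libraries. For Trdc in CD3-gated cells these were Cd247 (0.44), Ptprcap, Klrk1, Cst7 and S100a4. Over the libraries they ranged from 0.24 to 0.72, 0.14 to 0.75, 0.06 to 0.71, 0.17 to 0.54 and 0.11 to 0.67. For Trac the genes were Cd2 (0.32), Lck, Ctla2a, Skap1 and Fyb. Among members Tcrg-C1 had 0.55 with Trdc, and Trac had -0.24. In CD3-rich cells Cd247 again led for Trdc (0.41) and Cd2 for Trac (0.26), while the other 4 of Trdc were Eif1, Scp2, Tmem176a and Vim. The coefficients of Eif1 ranged from 0.08 to 0.89 over the libraries and those of Vim from 0.08 to 0.67, so their means lean on the highest library, against 0.30 to 0.55 for Cd247. In the epidermal libraries Trdc was in 906 of 920 and 369 of 374 CD3-rich cells, so its coefficients there rest on few cells. Cells of one library share its depth and free RNA, and deeper cells hold more genes of every kind.

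Some counts of the members lay in cells with under 2 CD3 UMIs. In imiquimod dermis 31 of the 200 fibroblast-gated cells, which held collagen transcripts and no Ptprc, held Trdc (15.5%), with 123 UMIs in all, up to 18 in a cell and 53.4 CPM. In lesional skin 29 of 561 (5.17%) did, with 154 UMIs, up to 66 in a cell and 18.8 CPM. In untreated dermis 0 of 23 did, which by the limit of 3 counts allows up to 13.7 CPM and a share of up to 13.0% (exact Clopper-Pearson upper bound 14.8%). Of the carriers 28 of 31 and 29 of 29 had no CD3 UMI. Tcrg-C1 gave only 2 UMIs and 1 UMI in these cells, or 1.63 and 0.649 per 100 Trdc UMIs, against 34.1 and 30.8 in CD3-rich cells of the same libraries. Trdc thus appeared there with few UMIs of the gamma chain. Trdc levels in fibroblast-gated cells were also above those in macrophage-gated cells, at 3.79 CPM in imiquimod dermis and 0.498 CPM in lesional skin. The genes with the highest mean phi coefficient with Trdc over the fibroblast-gated cells of both libraries were Draxin, a secreted guidance protein, Inhba, the activin A subunit, Hmga1, Ass1 and F2rl1. Draxin was found in 38.7% of cells with Trdc and 11.2% of cells without it in imiquimod dermis, and in 48.3% and 8.27% in lesional skin. Cells with Trdc were deeper, with medians of 11493 UMIs against 9267 in imiquimod dermis and 22087 UMIs against 12182 in lesional skin, and the part of depth was not tested.

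Among keratin-gated cells Trbc2 was the member seen apart from its partners. It was found in 111 of the 213 keratin-gated cells of lesional skin (52.1%), with 455 UMIs, up to 30 in a cell and 69.9 CPM, where Trbc1 gave 1 UMI and Trac 6. Of the carriers, 109 had no CD3 UMI. In CD3-rich cells of that library Trbc2 gave 1247 UMIs and Trbc1 1012. Keratin-gated cells of non-lesional epidermis held Trbc2 at 47.6 CPM in 15.97%, and those of untreated epidermis at 22.1 CPM in 7.75%, each beside Trbc1 at 32.2 and 8.03 CPM. The 6 keratin-gated cells of untreated dermis held Trbc2 at 73.1 CPM (19.9 to 187), from 4 UMIs in 2 cells, with Trbc1 and Trac at 0. Lesional keratin-gated cells with Trbc2 had a median of 34487 UMIs and those without it 16786, and the part of depth was not tested.

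**Figure D5:**
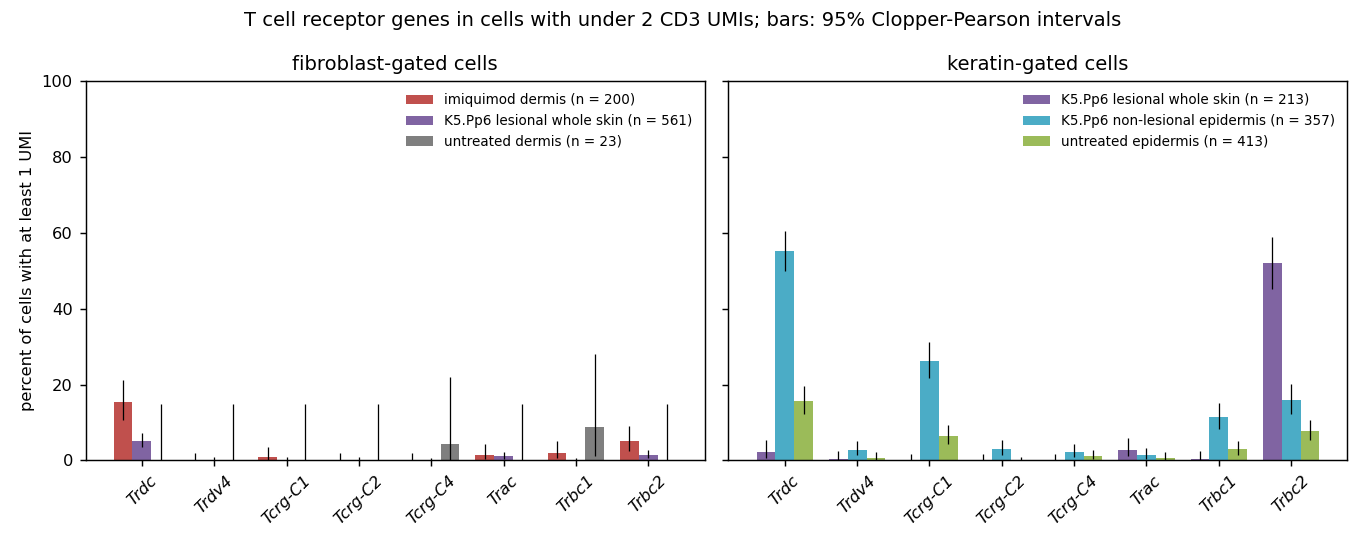
Share of fibroblast-gated and keratin-gated cells with under 2 CD3 UMIs that held at least 1 UMI of each member (vertical, percent), by library, with exact Clopper-Pearson 95% intervals. Trdc was found in 15.5% of fibroblast-gated cells of imiquimod dermis and 5.17% of those of lesional skin, and Trbc2 in 52.1% of keratin-gated cells of lesional skin.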

How the data were processed

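The deposited files held UMI counts per gene and barcode, as made by the authors with Cell Ranger (3.0.2 per the file headers), with CASAVA and build mm10 named in the submitters' processing notes. Library preparation used a droplet 3′ kit after enzyme digestion, per the labels' protocols. From there, barcodes with at least 200 genes and under 20% mitochondrial UMIs were kept, and the barcodes with the top Scrublet scores (scanpy 1.11.5, 30 components) were removed at 0.8% per 1000 barcodes. Levels are UMIs per 1000000 (CPM) over summed cells with exact Poisson intervals, shares have Clopper-Pearson intervals, and ratios exact conditional binomial intervals, all at 95%, covering counting error only. A ratio was called when its interval lay beyond 1.5-fold, among genes with at least 10 UMIs in sum and 10 CPM in either library. Cells were also thinned to 2000 UMIs, shallower ones being left out.

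UMIs summed per library and class were tested with edgeR 4.0.16 (R 4.3.3; TMM, filterByExpr, quasi-likelihood, Benjamini-Hochberg threshold 0.05), with DESeq2 1.42.0 as an alternative. The library was a term because both classes came from the same libraries. Named genes were the members, the 10 highest and 10 lowest called genes with at least 50 CPM in the higher class of every library, leaving out members, mitochondrial, ribosomal, haemoglobin, predicted, Xist and Y-linked genes, and the largest changes within lists. The edgeR step was tested on simulated counts. The members and lists were chosen with earlier results of these data known, and the CD3-rich set after seeing these counts. Nothing says that a library came from more than 1 animal.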

Additional observations from a re-analysis of the deposited data

Results flagged for a closer look

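Trbc1, a beta constant gene, stood at 1.86 times the Trac-only level in Trdc-only cells of lesional skin and at 0.700 times in those of imiquimod dermis, effects of opposite direction in 1 library each. The difference between the libraries was not tested.

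Trdc gave 53.4 CPM in fibroblast-gated cells of imiquimod dermis and 18.8 CPM in those of lesional skin, cells that the comparisons between libraries do not use, while no fibroblast-gated cell of untreated dermis held it. Only 23 such cells were present in untreated dermis.

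Trbc2 gave 69.9 CPM in keratin-gated cells of lesional skin, above the 47.6 CPM in those of non-lesional epidermis and the 22.1 CPM in those of untreated epidermis. The 6 keratin-gated cells of untreated dermis gave 73.1 CPM (19.9 to 187), from 4 UMIs.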

How the results depend on the processing

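With 1 library a group, the ratios between libraries have no replicate check, and the depth of the smaller libraries limits Tcrg-C2, Tcrg-C4 and Trdv4 most. For imiquimod over untreated dermis the ratio of Trdc was 0.116, 0.239 and 0.166 with a CD3 gate of at least 1 UMI, one of at least 3 UMIs and a mean over cells, and that of Trac 0.404, 0.940 and 1.13, or 0.920 in CD3-rich cells. For non-lesional over untreated epidermis Trdc was at 0.313, 0.237 and 0.436 under the same 3 settings and 0.935 in CD3-rich cells, and Trac at 0.296 with the lower gate, 0.390 as a mean over cells and 0.846 in CD3-rich cells. For lesional skin over non-lesional epidermis Trdc was at 0.529, 0.570 and 0.322, at 0.134 in CD3-rich cells, 0.587 over all barcodes and 0.584 without doublet removal, and Trac at 15.2 with the lower gate, 9.26 as a mean over cells and 3.91 in CD3-rich cells, where Tcrg-C2 (0.558), Trbc1 (0.632) and Trbc2 (0.784) turned round. For untreated epidermis over dermis Trdc was at 3.98 with the higher gate and 3.23 as a mean over cells.

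The share of cells with Trdc in imiquimod dermis was 16.2% with the lower gate, 27.8% with at least 2 UMIs of Trdc and 24.9% thinned. In non-lesional epidermis it was 86.8% and 92.5% with the lower and higher gates, 98.5% in CD3-rich cells, 75.4% with at least 2 UMIs and 58.4% thinned, and in untreated epidermis 73.6%, 95.9% and 98.7% with the lower, higher and CD3-rich gates. The Trdc-only percent of single-class cells was 3.63% in imiquimod dermis, 4.40% in lesional skin, 87.9% in non-lesional epidermis, 79.2% in untreated epidermis and 12.8% in untreated dermis when Trbc1 and Trbc2 counted as alpha-beta and Trdv4 as gamma-delta, which follows from the beta transcripts in Trdc-bearing cells. With at least 2 UMIs it was 45.1% in lesional skin and 99.9% in non-lesional epidermis, and thinned it was 45.8% in lesional skin. That class rule left only non-lesional epidermis with enough cells, so the test gave no value, and the rule of at least 2 UMIs left 2 libraries.

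The class comparison called 275 genes with no low count filter and between 45 and 92 with 1 library left out. Of the type 17 list, 2 genes were higher without TMM factors. With no replicate block, that is without the library term, 5 genes were called; Tcrg-C1 was the 1 member among them. Trbc1 was at a log2 fold change of -0.29 without lesional skin and 0.40 without imiquimod dermis. For the other moved values the cause was not tested.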

Other observations

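Lymphoid-gated cells with under 2 CD3 UMIs, chosen by Thy1, Il7r, Il2rb, Gata3, Ncr1 and Klrb1c, also held beta constant transcripts. In imiquimod dermis 120 such cells held Trbc1 at 287 CPM (245 to 334) and Trbc2 at 182 CPM (149 to 221). In lesional skin 267 such cells held each at 32.0 CPM (26.7 to 38.1), and in untreated dermis 36 such cells held Trbc1 at 288 CPM (211 to 384) and Trbc2 at 144 CPM (91.3 to 216). In the CD3-rich cells of the same libraries Trbc2 gave more UMIs than Trbc1: 2126 and 1241 in imiquimod dermis, 1247 and 1012 in lesional skin, and 204 and 175 in untreated dermis. The difference between these kinds of cell was not tested.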
